A study of Oryzias latipes with 12 samples.

Results

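The 7 genes analysed here belong to the brain and pituitary pathway that controls the gonadotropins. Their transcript levels were followed through a photoperiod experiment in medaka (Oryzias latipes), a small freshwater fish that breeds under long days. The genes were taken by symbol and NCBI gene identifier from a table of transcript levels: gnrh1 (100049266), gnrh3 (100049220), tac3 (101168865), tacr3 (101159167), foxl2 (100125429), inhbb (101165458) and fst (101167370). They are 7 of the 26663 genes in the table, and 7 of 7 passed the filter on low values. Levels are given as TPM, a transcript abundance scaled to the library total, which allows for gene length and can be compared between genes. Of 12 libraries, 3 came from pd1 knockout fish 12 days after a move to long days, 3 from pd1 knockout fish on short days, 3 from wild-type fish 12 days after the move and 3 from wild-type fish on short days. The series' design text names the knocked-out gene phod1. Each library held RNA of the ventral telencephalon, the hypothalamus and the pituitary, taken at hour 12 of the day. Fish on short days were sampled before the transfer, so day length and the 12 days that passed cannot be told apart. The labels give no strain, allele, age, sex or number of fish per library, and nothing says that libraries came from separate fish, so p-values measure the spread between these libraries.

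GnRH neurons release a decapeptide that acts on receptors of the gonadotropes, the pituitary cells that make follicle-stimulating hormone and luteinizing hormone. In medaka GnRH1 is the form that reaches the pituitary, while GnRH3 neurons lie further forward in the brain. Neurokinin B, the product of tac3, acts through the receptor encoded by tacr3 and stimulates GnRH release in mammals. Within the pituitary of mammals, activin drives transcription of the FSH beta gene together with the transcription factor FOXL2, and follistatin binds activin and blocks it.

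Markers of neurons and of the pituitary were present, and no marker particular to the ventral telencephalon was checked. All 5 neuronal markers and 6 of 6 genes of hypothalamic peptide neurons had at least 1 TPM in every library, as did 4 of 5 pituitary markers, prl staying at or below 0.35 TPM. Of 8 gonad markers, 2 had at least 1 TPM in every library and 2 were under 1 TPM in all. Pituitary marker genes summed to 3731 to 8008 TPM in knockout long-day libraries, 1827 to 8948 TPM in knockout short-day libraries, 4056 to 8276 TPM in wild-type long-day libraries and 3422 to 6452 TPM in wild-type short-day libraries. These were pomc, prl, cga, pou1f1 and pitx1, the 5 of 12 listed names that matched. Most of the sum was pomc (mean 4376 TPM) and cga (mean 919 TPM), and cga itself rose on long days. No gene of the table carries the symbol pd1 or phod1, so the knockout was not checked in these data. Replicate 3 of the wild-type short-day group stood apart: rsad2, an interferon-induced antiviral gene, had 287 TPM there and at most 6.30 TPM in the other 11. The same library held the highest tac3 and the lowest gnrh1, gnrh3 and fshb of the 12. The deposited TPM carry no depth, so counting error cannot be given, and in bulk tissue fewer cells of a type cannot be told apart from less RNA per cell.

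All 7 genes were detected in every library, and the level of each varied by at most 3.12-fold over the 12 libraries. The most abundant was gnrh1, at a mean of 35.0 TPM over the 12 libraries, followed by tac3 at 29.7 TPM, gnrh3 at 23.3 TPM, foxl2 at 14.9 TPM, fst at 11.2 TPM, tacr3 at 3.50 TPM and inhbb at 1.77 TPM. Their highest library exceeded their lowest by 1.91-fold for fst, 2.27-fold for foxl2, 2.40-fold for inhbb, 2.45-fold for gnrh1, 2.56-fold for gnrh3, 2.60-fold for tacr3 and 3.12-fold for tac3. A gene was called when its adjusted p over all 18218 tested genes was under 0.05 (limma, log2(TPM + 1)), and 0 of the 7 genes were called in any of the 7 contrasts between groups.

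Calls were also rare over the whole table. In the knockout 1.76% of all tested genes were called between long and short days, and in wild type 0.192%. Between genotypes 0.642% were called under long days and 0.664% under short days. Over both genotypes 3.08% were called with day length, over both day lengths 2.40% with genotype, and 0.00549% for the difference in response. At an unadjusted p under 0.05, gnrh1 passed in the wild-type photoperiod contrast, in the pooled photoperiod contrast and in the difference of responses, and tac3 in the pooled genotype contrast. The other 5 members passed in none of the 7 contrasts. Over all tested genes 15.9% passed that unadjusted threshold between day lengths in the knockout, 11.6% in wild type and 18.8% over both, 11.3% between genotypes under long days, 13.2% under short days and 15.6% over both, and 7.93% for the difference in response. A count of 1 of 7 genes is near these shares. A count of 0 among 7 genes is near these shares.

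Counted by libraries that did not overlap, 0 of 7 genes separated long from short days in the knockout, where 21.8% of all tested genes did, and 2 of 7 in wild type, gnrh1 and foxl2, where 17.0% did. Knockout and wild type were separated for 0 of 7 genes under long days, against 15.8% of all genes, and for 1 of 7 under short days, foxl2, against 19.5%. The median difference of the 7 genes, long minus short days, was -0.07 in the knockout and -0.01 in wild type, against 0.03 and -0.05 over all tested genes.

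**Figure D1:**
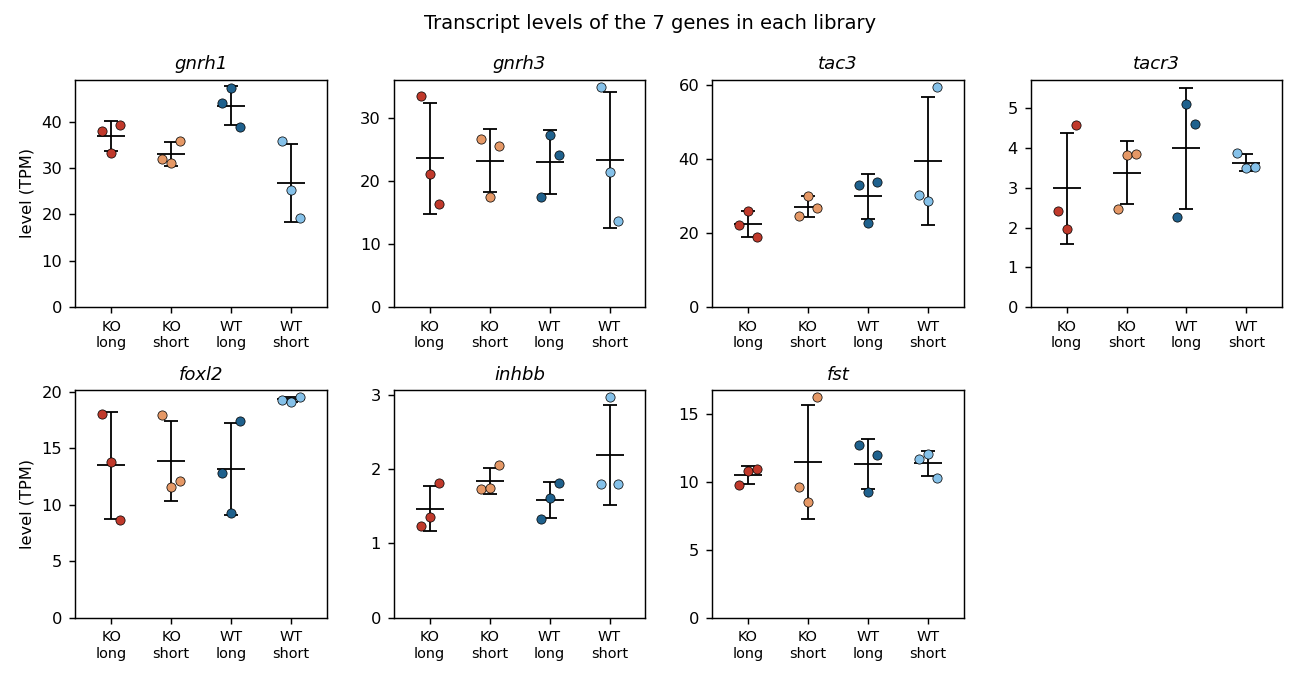
TPM of each of the 7 genes in the 12 libraries, by genotype and day length; points are libraries and bars give the mean ± SD of 3. The gnrh1 points of wild-type long-day fish (38.9 to 47.2 TPM) lie above those of wild-type short-day fish (19.3 to 35.9 TPM), with both knockout groups between 31.2 and 39.3 TPM.

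The GnRH ligand gnrh1 had the largest day-length difference of the members in wild type. Wild-type long-day libraries held 44.1, 47.2 and 38.9 TPM, against 35.9, 25.3 and 19.3 TPM in wild-type short-day libraries. Every long-day library lay above every short-day library. The mean was 43.4 ± 4.20 TPM on long days and 26.8 ± 8.42 TPM on short days (SD, n = 3 each). On the log2(TPM + 1) scale used for all tests the difference was 0.71 (SE 0.17, 95% confidence interval 0.33 to 1.09), a fold of 1.26 to 2.14. It did not pass adjustment over all 18218 genes tested (limma, adjusted p = 0.138). Without wild-type short-day replicate 1, the highest of its group, the difference was 0.94 with an adjusted p of 0.0363, and without replicate 3 it was 0.51 with an adjusted p of 0.289. Over all alternatives the adjusted p ran from 0.0363 to 0.336.

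In knockout fish gnrh1 did not separate the day lengths. It had 38.1, 33.3 and 39.3 TPM in knockout long-day libraries, against 31.9, 31.2 and 35.9 TPM in knockout short-day libraries, and the groups overlapped. Their means were 36.9 ± 3.20 and 33.0 ± 2.58 TPM (SD, n = 3 each), a log2 difference of 0.16 (SE 0.17, interval -0.22 to 0.54, limma adjusted p = 0.713). The interval leaves room for anything between a fall to 0.856-fold and a rise of 1.45-fold. The difference between the 2 genotypes in their response, knockout minus wild type, was -0.56 (SE 0.25, interval -1.10 to -0.02) and did not pass adjustment (limma, adjusted p = 0.606). Without wild-type short-day replicate 3 it was -0.35 (adjusted p = 0.804). Pooled over genotypes, gnrh1 was 0.43 higher on long days on the log2 scale (SE 0.12, interval 0.17 to 0.70, limma adjusted p = 0.0847). That adjusted p was 0.0174 without wild-type short-day replicate 1 and ran from 0.0174 to 0.156 over the alternatives.

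Ordered by mean level, gnrh1 was highest in wild-type long-day fish, then knockout long-day, knockout short-day and wild-type short-day fish. No pair of neighbours in that order differed past the threshold. Under long days the knockout differed from wild type by -0.23 (limma, adjusted p = 0.698), and under short days by 0.33 (limma, adjusted p = 0.454), a value of 0.12 without wild-type short-day replicate 3 (adjusted p = 0.843). Under short days the lowest and highest knockout libraries had 31.2 and 35.9 TPM, and the highest wild-type library had 35.9 TPM, so the groups overlapped.

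Among the 9446 tested genes with a name, fshb, the FSH beta subunit gene, had the highest Pearson's r with gnrh1 over the 12 libraries, 0.867 on the log2(TPM + 1) scale. The r of fshb was 0.704 for deviations from the 4 group means, 0.759 without wild-type short-day replicate 3, 0.574 within the 6 long-day libraries and 0.867 within the 6 short-day libraries. For gorasp2, which encodes a Golgi stacking protein, r was 0.846 over the 12 libraries, 0.894 for deviations, 0.687 without that replicate, 0.394 within long days and 0.958 within short days. For npr2, a natriuretic peptide receptor gene, r was 0.829 over the 12 libraries, 0.603 for deviations, 0.826 without that replicate, 0.297 within long days and 0.766 within short days. Without that replicate npr2 thus stood above fshb. These values are descriptions over 12 libraries that share 4 groups.

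**Figure D2:**
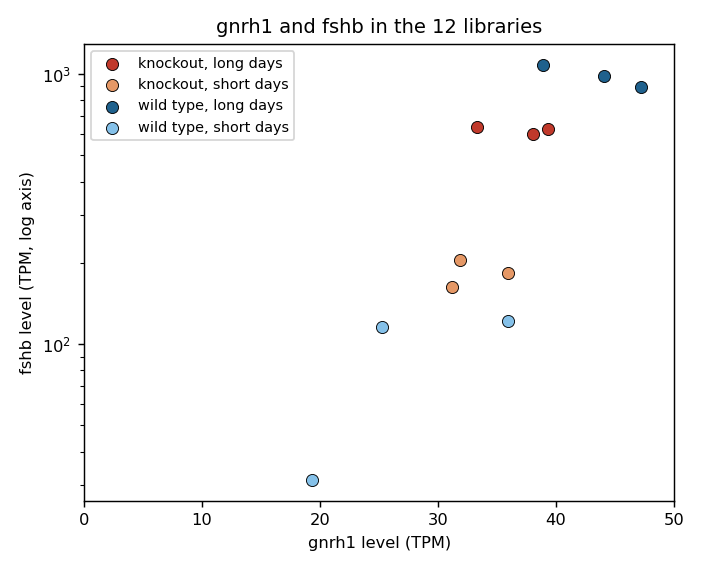
TPM of fshb (log axis) against TPM of gnrh1 (linear axis) in the 12 libraries, 1 point each, coloured by group. Long-day libraries lie at the top (602 to 1083 TPM of fshb), and wild-type short-day replicate 3 lies lowest on both axes, at 19.3 TPM of gnrh1 and 31.4 TPM of fshb.

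The gonadotropin subunit genes rose on long days in both genotypes. The beta subunit fshb averaged 621 ± 16.9 TPM in knockout long-day fish, against 184 ± 21.4 TPM in knockout short-day fish, and 988 ± 93.0 TPM in wild-type long-day fish, against 89.6 ± 50.5 TPM in wild-type short-day fish (SD, n = 3 each). Its log2 differences were 1.76 in the knockout (SE 0.38, limma adjusted p = 0.0464) and 3.67 in wild type (SE 0.38, limma adjusted p = 0.00497). The wild-type difference was 3.04 without wild-type short-day replicate 3. The luteinizing hormone subunit lhb rose by 2.43 in the knockout and 2.36 in wild type, and the common subunit cga rose by 2.49 in the knockout and 2.04 in wild type. The call of fshb in the knockout was lost without any 1 of the 6 knockout libraries (adjusted p up to 0.144), at a pseudocount of 0.1 (0.0505), with all genes (0.0689) and with median-ratio scaling (0.0516). Over all alternatives that knockout difference stayed between 1.67 and 1.84, while its limma adjusted p ran from 2.8e-05 to 0.144. The fit gave each gene 1 spread for all 4 groups. The SE in the knockout thus also took in wild-type short-day replicate 3, at 31.4 TPM of fshb. Over both genotypes fshb rose by 2.71 (SE 0.27, limma adjusted p = 0.000831), and that call held in 16 of 16 alternatives. In wild type the call of fshb held in 10 of 11 alternatives (limma adjusted p down to 3.0e-07). It was lost in a fit to the 2 groups alone (adjusted p = 0.115). The wild-type call of cga was lost in the same fit (adjusted p up to 0.0673 over the alternatives). That call was also lost when replicate 1 of the wild-type short-day group, or 13 or 15 of the wild-type long-day group, was left out.

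The second ligand, gnrh3, showed no day-length or genotype difference that these libraries could resolve. The gene had 33.4, 21.2 and 16.3 TPM in knockout long-day libraries, and 26.6, 17.5 and 25.6 TPM in knockout short-day libraries. Wild-type long-day libraries held 17.4, 27.4 and 24.1 TPM, and wild-type short-day libraries 34.9, 21.5 and 13.6 TPM. All 4 groups overlapped, and their means lay between 22.9 and 23.6 TPM. Long minus short days was -0.01 in the knockout (interval -0.73 to 0.70, limma adjusted p = 0.991) and 0.05 in wild type (interval -0.66 to 0.76, limma adjusted p = 0.979). Knockout minus wild type was 0.00 under long days and 0.07 under short days, with limma adjusted p of 0.999 and 0.956.

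The libraries of 1 group differed more in gnrh3 than in any other member. Its residual SD on the log2 scale was 0.47 (8 degrees of freedom), against a median of 0.16 over all tested genes and 0.136 over the 3810 tested genes of similar level. The corresponding SD was 0.24 for gnrh1, 0.35 for tac3, 0.37 for tacr3, 0.36 for foxl2, 0.26 for fst and 0.19 for inhbb. In 12 of 12 libraries gnrh1 stood above gnrh3, by 1.03 to 2.53-fold. The ratio averaged 1.71 ± 0.646 in knockout long-day, 1.46 ± 0.297 in knockout short-day, 1.96 ± 0.4995 in wild-type long-day and 1.21 ± 0.196 in wild-type short-day libraries (SD, n = 3 each). The named genes most like gnrh3 were abl1, a tyrosine kinase gene, with r of 0.880 over the 12 libraries and 0.983 for deviations from group means, tes at 0.861 and orc3, a subunit gene of the origin recognition complex, at 0.836.

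The third ligand gene of the family, gnrh2, was listed at 0 in all 12 libraries. Of the receptor genes, gnrh-r2 was the most abundant at 26.5 to 48.7 TPM, gnrh-r3 had 3.44 to 5.54 TPM and gnrh-r1 at most 0.35 TPM, below the filter. For the GnRH and kisspeptin system 13 of 36 listed names matched a gene. No kisspeptin, kisspeptin receptor or androgen receptor gene was among them, so none was tested here. Together with gal, npy, pdyn, npff, nos1 and the estrogen and progesterone receptor genes, the list held 13 genes, 11 of them tested. Of these, 0 were called in any of the 7 contrasts (limma). At an unadjusted p under 0.05 there were 0 of 11 in the knockout photoperiod contrast and 2 of 11 in the wild-type one, where 15.9% and 11.6% of all tested genes passed. The list's median difference, long minus short days, was 0.12 in the knockout and 0.01 in wild type, against 0.03 and -0.05 over all tested genes.

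The tachykinin gene tac3 had lower means in knockout than in wild-type fish under both day lengths, but the differences did not pass the test. Knockout long-day libraries held 22.1, 25.95 and 19.0 TPM, against 33.0, 22.8 and 33.9 TPM in wild-type long-day libraries. Knockout short-day libraries held 24.5, 30.1 and 26.6 TPM, against 30.2, 28.7 and 59.4 TPM in wild-type short-day libraries. Knockout and wild type overlapped under both day lengths, and the 59.4 TPM came from replicate 3, the library with high rsad2. Group means were 22.4 ± 3.47, 27.1 ± 2.86, 29.9 ± 6.15 and 39.4 ± 17.3 TPM for knockout long-day, knockout short-day, wild-type long-day and wild-type short-day fish (SD, n = 3 each). That order ran from lowest to highest, and neighbours sharing a genotype or a day length did not differ past the threshold. The middle pair, knockout short-day and wild-type long-day fish, overlapped and was not tested.

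Knockout minus wild type for tac3 was -0.39 under long days (interval -0.93 to 0.15, limma adjusted p = 0.606) and -0.45 under short days (interval -0.99 to 0.09, limma adjusted p = 0.471). Over both day lengths it was -0.42 (SE 0.17, interval -0.80 to -0.04), with a limma adjusted p of 0.269. Without wild-type short-day replicate 3 the short-day difference was -0.12 (adjusted p = 0.883) and the pooled one -0.26 (adjusted p = 0.374). Long minus short days was -0.27 in the knockout (limma adjusted p = 0.636) and -0.33 in wild type (limma adjusted p = 0.650), the wild-type value being 0.00038 without that replicate.

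Some markers of cells in the dissected tissue differed with genotype, while tac3 itself was not called. The 6 genes of hypothalamic peptide neurons summed to 1179 to 1782 TPM in knockout long-day libraries, against 1710 to 2318 TPM in wild-type long-day libraries, and to 1374 to 1976 TPM in knockout short-day libraries, against 2164 to 2303 TPM in wild-type short-day libraries. The 6 were LOC101160739, oxt, crh, hcrt, npy and th. LOC101160739 (mean 692 TPM) and npy (mean 647 TPM) had the highest means, and neither was called. LOC101160739 ranged from 246 to 1108 TPM over the 12 libraries. It averaged 457 TPM in knockout long-day and 757 TPM in wild-type long-day libraries. Over both day lengths 2 of the 6 were called lower in the knockout and 0 higher, where 2.40% of all tested genes were called. These were oxt, lower by 1.29, and hcrt, lower by 0.50 on the log2 scale (limma, adjusted p = 0.0308 and 0.0360). Of the 6 genes, 2 had a difference above 0. The only matched microglial marker, cd74, an antigen presentation gene, had 207, 251 and 224 TPM in knockout long-day libraries, against 404, 298 and 286 TPM in wild-type long-day libraries. Its levels were 249, 199 and 239 TPM in knockout short-day libraries, against 289, 285 and 350 TPM in wild-type short-day libraries, a pooled difference of -0.47 (limma, adjusted p = 0.0304). All 3 calls were lost without wild-type short-day replicate 3 and without other single libraries, with adjusted p up to 0.0750 for oxt, 0.0901 for hcrt and 0.0729 for cd74. Of 16 alternatives the call held in 9 for oxt, 5 for hcrt and 10 for cd74. The 5 general neuronal markers gave 0 calls between genotypes (limma), with 1 at an unadjusted p under 0.05 over both day lengths, against 15.6% of all tested genes. Of 4 markers of radial glia and astroglia, s100b alone was called over both day lengths, lower in the knockout (limma, adjusted p = 0.0316). Of those 4, 2 had a difference above 0. The part of these differences in the tac3 values was not tested.

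Its receptor gene tacr3 was less abundant than tac3 in each library, by 4.15 to 16.9-fold. Its levels in knockout long-day libraries were 2.41, 1.97 and 4.58 TPM, knockout short-day libraries 2.48, 3.83 and 3.85 TPM, wild-type long-day libraries 2.26, 5.12 and 4.62 TPM, and wild-type short-day libraries 3.89, 3.50 and 3.52 TPM. The wild-type short-day values lay close together, at 3.64 ± 0.220 TPM (SD, n = 3), and each of the other groups held a value below all 3 of them. Long minus short days was -0.18 in the knockout (interval -0.79 to 0.43) and 0.06 in wild type (interval -0.55 to 0.67), with limma adjusted p of 0.811 and 0.970. Knockout minus wild type was -0.33 under long days and -0.10 under short days, with limma adjusted p of 0.731 and 0.920.

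Among named genes tac3 was most like ptprc, which encodes the leukocyte surface protein CD45 (r = 0.932 over 12 libraries, 0.920 for deviations from group means, 0.860 without wild-type short-day replicate 3). In that replicate ptprc had 9.75 TPM, against 3.49 to 6.78 TPM in the other 11. Next came eno4 at 0.904 and pgpep1, a peptidase gene, at 0.876. The genes most like tacr3 were rpap2 at 0.845, pabpn1 at 0.818 and slc9a3r2 at 0.814. By mean level, tac1, which encodes substance P, and the receptor gene tacr2 were more abundant than tac3 (29.7 TPM). They had 175 to 268 TPM and 44.2 to 56.6 TPM. Lower means were those of ece1 (21.0 TPM), mme (19.2 TPM), tacr1a (4.33 TPM) and tacr1b (0.90 TPM). These 6 other genes of the tachykinin system were tested, and 0 were called in any contrast (limma). At an unadjusted p under 0.05, 1 passed in the knockout photoperiod contrast and 0 in the wild-type one. Of all tested genes 15.9% and 11.6% did.

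Wild-type short-day fish had the highest foxl2, at almost the same level in each library. Their 3 libraries held 19.3, 19.1 and 19.6 TPM, against 12.8, 9.28 and 17.4 TPM in wild-type long-day libraries. Knockout long-day libraries held 18.0, 13.8 and 8.61 TPM, and knockout short-day libraries 17.9, 11.6 and 12.1 TPM. The wild-type short-day libraries lay above every other library, and the other groups overlapped one another. Group means were 13.5 ± 4.71, 13.9 ± 3.53, 13.2 ± 4.09 and 19.3 ± 0.232 TPM for knockout long-day, knockout short-day, wild-type long-day and wild-type short-day fish (SD, n = 3 each).

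The tests did not separate these foxl2 levels from the spread between libraries. Long minus short days in wild type was -0.56 (SE 0.26, interval -1.13 to 0.01, limma adjusted p = 0.436), and in the knockout -0.07 (interval -0.64 to 0.50, limma adjusted p = 0.928). Knockout minus wild type was -0.47 under short days (interval -1.04 to 0.09, limma adjusted p = 0.472) and 0.02 under long days (interval -0.55 to 0.58, limma adjusted p = 0.989). The knockout response minus the wild-type response was 0.49 (SE 0.37, limma adjusted p = 0.752).

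Among the 3 named genes most like foxl2 over the 12 libraries were foxc1 (r = 0.917) and tbx15 (r = 0.879). Both encode transcription factors. For deviations from group means the r values were 0.894 for foxc1 and 0.821 for tbx15, so the likeness was present within groups as well. Within the 6 long-day libraries foxc1 reached 0.975. The level of foxc1 was 20.8, 15.6 and 10.0 TPM in knockout long-day libraries, and 15.3, 10.4 and 17.2 TPM in wild-type long-day libraries, in the same order of libraries as foxl2. The pituitary hormone gene pomc ranged over 2576 to 5991 TPM, 1602 to 8537 TPM, 2689 to 7002 TPM and 3048 to 5987 TPM in the knockout long-day, knockout short-day, wild-type long-day and wild-type short-day groups. The part of pituitary content in the foxl2 values was not tested.

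**Figure D3:**
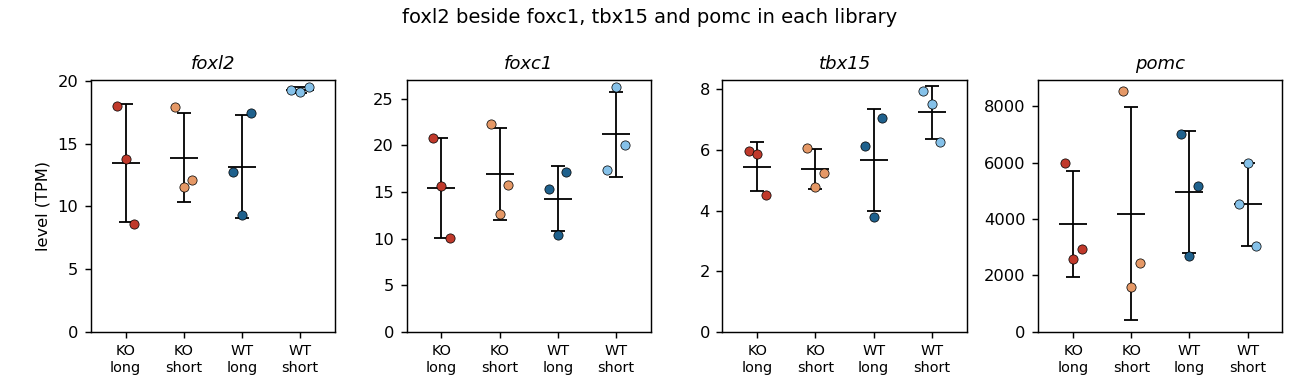
TPM of foxl2, foxc1, tbx15 and pomc in each library by group; points are libraries and bars the mean ± SD of 3. In wild-type short-day fish foxl2 stays within 19.1 to 19.6 TPM, while foxc1 there spans 17.4 to 26.3 TPM and pomc 3048 to 5987 TPM.

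The activin subunit gene inhbb was the least abundant member. It stood at 1.24, 1.35 and 1.81 TPM in knockout long-day libraries, against 1.73, 1.75 and 2.05 TPM in knockout short-day libraries. Wild-type long-day libraries held 1.33, 1.61 and 1.82 TPM, against 1.80, 2.97 and 1.80 TPM in wild-type short-day libraries. Long-day means were below short-day means in both genotypes, but the groups overlapped. Long minus short days was -0.21 in the knockout (interval -0.62 to 0.20, limma adjusted p = 0.629) and -0.29 in wild type (interval -0.70 to 0.12, limma adjusted p = 0.593). At this level the added 1 TPM makes the log2 differences smaller than the ratios.

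The activin-binding protein gene fst had the narrowest range of the members over the 12 libraries. Its levels were 9.78, 10.8 and 10.9 TPM in knockout long-day libraries, 9.60, 8.52 and 16.3 TPM in knockout short-day libraries, 12.7, 9.27 and 12.0 TPM in wild-type long-day libraries, and 11.7, 12.1 and 10.3 TPM in wild-type short-day libraries. All groups overlapped, and the group means lay between 10.5 and 11.5 TPM. Long minus short days was -0.07 in the knockout (interval -0.50 to 0.36, limma adjusted p = 0.911) and -0.01 in wild type (interval -0.44 to 0.42, limma adjusted p = 0.989). Knockout minus wild type was -0.09 under long days and -0.04 under short days for fst, and -0.07 and -0.15 for inhbb, all with limma adjusted p of at least 0.788.

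In every library fst exceeded inhbb, by 4.07 to 9.57-fold. The ratio averaged 7.32 ± 1.10 in knockout long-day, 6.12 ± 1.62 in knockout short-day, 7.30 ± 2.01 in wild-type long-day and 5.43 ± 1.24 in wild-type short-day libraries (SD, n = 3 each). These ranges overlapped. No separate gene was matched for the listed names inhba, inhbc and inhbe, so the ratio covers inhbb alone among activin subunit genes. The inhibin alpha gene inha had at most 0.07 TPM. The named genes most like inhbb were tbc1d30 at r = 0.866, sgcg at 0.844 and ydjc at 0.841, and those most like fst were slc25a3, the mitochondrial phosphate carrier gene, at 0.798, gp1bb at 0.789 and arsg at 0.788.

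Among other genes of the activin system, 2 were called between genotypes. Of 16 matched genes 15 were tested, and 2 fell in the knockout under short days, where 0.664% of all tested genes were called. These were smad7, an inhibitory SMAD of the receptors for activin and TGF-beta, and fstl1, a secreted follistatin-like protein gene. Under long days 0 of the 15 were called. Over both day lengths the same 2 were called, against 2.40% of all tested genes. For smad7, knockout short-day libraries held 28.2, 30.1 and 30.7 TPM, against 44.8, 40.1 and 42.8 TPM in wild-type short-day libraries. Its log2 difference was -0.51 (SE 0.07, limma adjusted p = 0.0109), and the call was lost without wild-type short-day replicate 3 (adjusted p = 0.0517) and in a fit to the 2 groups alone (adjusted p = 0.0550). Under long days the libraries held 33.0, 35.1 and 33.9 TPM in the knockout and 34.6, 32.9 and 35.8 TPM in wild type, a difference of -0.02 (limma adjusted p = 0.958). The difference between the 2 genotype contrasts of smad7 was 0.49 (SE 0.10) with a limma adjusted p of 0.182.

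For fstl1, knockout long-day libraries held 109, 102 and 83.2 TPM, against 124, 127 and 129 TPM in wild-type long-day libraries. Knockout short-day libraries held 105, 81.8 and 85.9 TPM, against 152, 136 and 127 TPM in wild-type short-day libraries. All 6 knockout libraries lay below all 6 wild-type libraries. Within 1 day length, 15.8% of all tested genes separated the genotypes under long days and 19.5% under short days. The share that separated all 6 from all 6 was not counted. The short-day difference was -0.60 (SE 0.11, limma adjusted p = 0.0413), and it no longer passed when any short-day library other than knockout replicate 1 was left out (adjusted p up to 0.139), in the 2 groups alone (0.103) or with all genes (0.0578). Over both day lengths the difference was -0.49 (SE 0.08, limma adjusted p = 0.0116), with adjusted p from 0.0062 to 0.0337 over the alternatives. Pooled over day length smad7 was -0.26 (limma adjusted p = 0.0207), a call lost without wild-type short-day replicate 1 or 3 or long-day replicate 15 (adjusted p up to 0.0549). The list's median difference was 0.05 over both day lengths, and that of all tested genes -0.00337.

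Among 19 tested genes of gonadotropes and pituitary factors, 3 rose with long days in the knockout and 3 in wild type, and these were cga, fshb and lhb each time. Of all tested genes 1.76% were called in the knockout and 0.192% in wild type. Over both genotypes neurod1, a transcription factor gene of neurons and pituitary cells, fell by 0.44 on the log2 scale (SE 0.07, limma adjusted p = 0.00582). It averaged 54.6 ± 1.19 TPM in knockout long-day fish, against 70.1 ± 9.43 TPM in knockout short-day fish, and 47.1 ± 3.97 TPM in wild-type long-day fish, against 68.6 ± 0.567 TPM in wild-type short-day fish (SD, n = 3 each). Between genotypes over both day lengths, the homeobox gene six6 differed by -0.27, lower in the knockout (limma adjusted p = 0.0419) and pou1f1, the factor of somatotropes, lactotropes and thyrotropes, by 0.46, higher in the knockout (limma adjusted p = 0.0491). Neither call held throughout: six6 was lost without any 1 of the 12 libraries (adjusted p up to 0.109) and pou1f1 without any 1 except knockout long-day replicate 14 and wild-type short-day replicate 2 (adjusted p up to 0.116). Of 23 tested genes of GnRH receptor signalling, such as protein kinase C and MAP kinase genes, 0 were called in any contrast (limma), with 1 at an unadjusted p under 0.05 in the knockout photoperiod contrast, 1 in the wild-type one and 5 in the pooled one. Of all tested genes 15.9%, 11.6% and 18.8% passed in those 3 photoperiod contrasts. For genotype such genes numbered 3 of 23 under long days, 5 under short days and 6 over both. The shares of all tested genes there were 11.3%, 13.2% and 15.6%. For the difference in response 0 of 23 passed, against 7.93% of all tested genes.

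**Figure D4:**
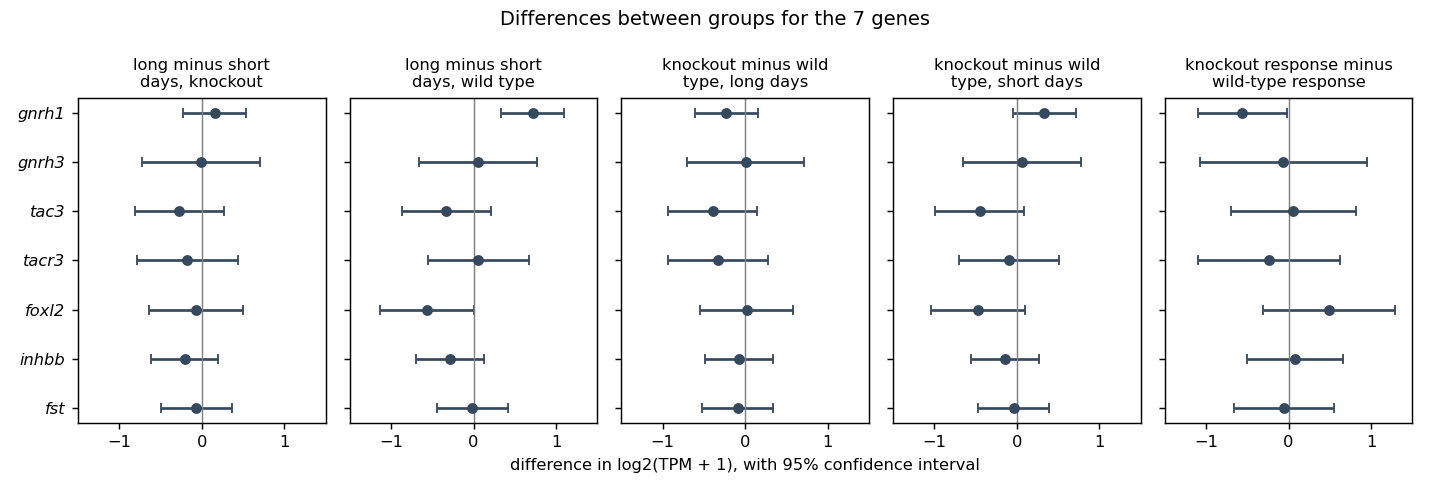
Differences of the 7 genes on the log2(TPM + 1) scale with 95% confidence intervals, from 1 fit to 12 libraries, for both photoperiod contrasts, both genotype contrasts and the difference in response. The gnrh1 interval in wild type (0.33 to 1.09) lies above 0, and the gnrh3 intervals of the photoperiod and genotype contrasts reach from -0.73 to 0.78.

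Side by side with the hormone genes, the regulatory genes varied over a narrow range. The log2 difference between long and short days in wild type was 0.71 for gnrh1 and 3.67 for fshb, and in the knockout 0.16 and 1.76. The remaining 6 members lay between -0.27 and -0.01 in the knockout and between -0.56 and 0.06 in wild type.

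**Figure D5:**
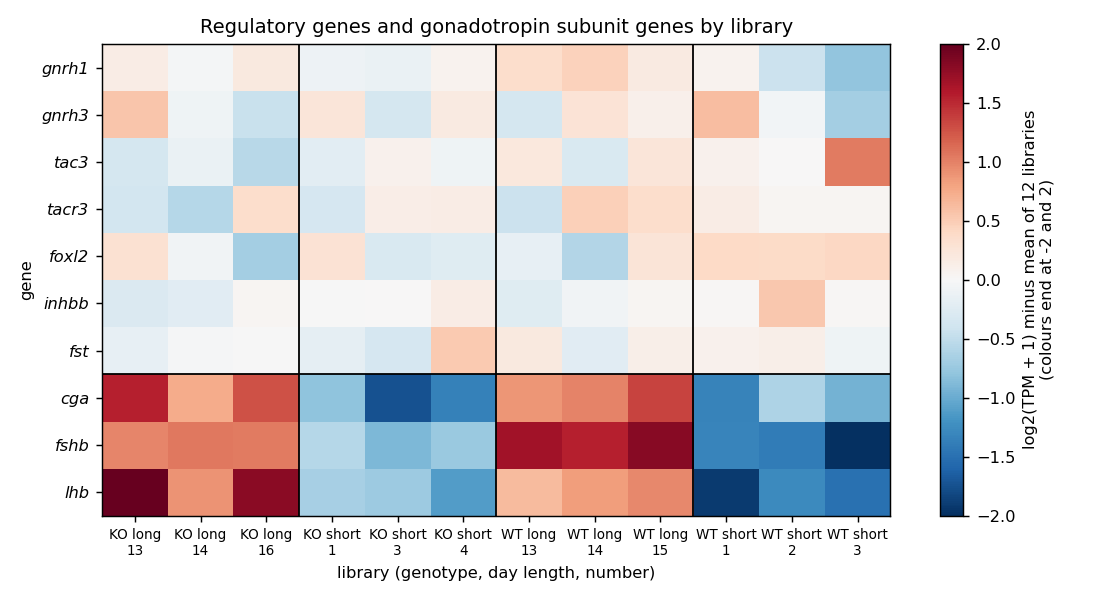
Level of each member and of cga, fshb and lhb in the 12 libraries, as log2(TPM + 1) minus the mean of the 12; red is above and blue below that mean, and colours end at -2 and 2. The subunit genes split by day length in every library, and the largest member deviation is tac3 in wild-type short-day replicate 3 (59.4 TPM against a mean of 29.7 TPM).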

How the data were processed

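The authors deposited TPM per gene for 12 strand-specific, paired-end libraries of polyadenylated RNA, per the labels' protocols. STAR 2.7.9a and RSEM 1.3.1 are named in the submitters' processing notes, while the genome build is not given in the sources used here. No coordinates are printed. Estimated abundances divide reads between near-identical copies. Gene symbols came from the RefSeq table of ASM223467v1, which matched all 26663 identifiers.

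Values were taken as log2(TPM + 1) without further scaling. Genes with at least 1 TPM in at least 3 libraries, 18218 in all, entered 1 limma fit (version 3.58.1, R 4.3.3) of 4 group means with a mean-variance trend. There were 7 two-sided contrasts, adjusted by Benjamini-Hochberg within each, and an adjusted p under 0.05 was a call. The fit was tested on simulated data. The pseudocount understates changes of low genes. Depth is unknown, so no counting error is given.

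The members and gene lists were chosen with earlier results of these data known. The text names all members, the 3 gonadotropin subunit genes, up to 4 called genes per list and contrast, and the 3 named genes most like each member by Pearson's r, of which 1 is not reported here; other genes were added after their values were seen. Alternatives were a pseudocount of 0.1, all genes above 0 TPM, median-ratio scaling, a replicate block, the 2 compared groups alone and leaving out each library in turn; leaving out wild-type short-day replicate 3 from contrasts it is not in was chosen after seeing the data.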

Additional observations from a re-analysis of the deposited data

Results flagged for a closer look

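The genotype difference in fshb had opposite signs under the 2 day lengths. Knockout libraries held 602, 635 and 625 TPM under long days, all below the 983, 897 and 1083 TPM of wild-type libraries, and 206, 163 and 183 TPM under short days, all above the 122, 115 and 31.4 TPM of wild-type libraries. This gene was flagged because its libraries separated in opposite directions. The share of all tested genes that did so was not counted. Of all tested genes 15.8% separated the genotypes under long days and 19.5% under short days. Neither fshb difference was called: -0.66 under long days and 1.25 under short days (limma, adjusted p = 0.567 and 0.197). The log2 difference of the 2 contrasts was -1.91 (SE 0.54) and did not pass adjustment (limma, adjusted p = 0.413). Without wild-type short-day replicate 3 it was -1.29 with an adjusted p of 0.0177, and the adjusted p ran from 0.0177 to 0.632 over the alternatives. Member gnrh1 had differences of the same signs, -0.23 under long days and 0.33 under short days, with overlapping libraries, and the short-day value was 0.12 without wild-type short-day replicate 3.

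Differences of smad7 between the day-length groups had opposite signs in the 2 genotypes, and none of them passed the test. Knockout long-day libraries held 33.0, 35.1 and 33.9 TPM, all above the 28.2, 30.1 and 30.7 TPM of knockout short-day libraries. Wild-type long-day libraries held 34.6, 32.9 and 35.8 TPM, all below the 44.8, 40.1 and 42.8 TPM of wild-type short-day libraries. Of all tested genes 21.8% separated the day lengths in the knockout and 17.0% in wild type. The share separated in opposite directions was not counted. The log2 differences were 0.19 and -0.30 (limma, adjusted p = 0.201 and 0.124), and their difference was 0.49 (SE 0.10, limma adjusted p = 0.182, range over the alternatives 0.163 to 0.425).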

How the results depend on the processing

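Over 49 member results and 658 alternatives, 592 kept their direction and side of the threshold, 0 lost and 2 gained a call (both gnrh1 without wild-type short-day replicate 1), and 64 changed sign without a call. TPM with no read counts and 3 libraries a group limit what can be resolved.

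Calls over all genes with 1 library left out ran from 81 to 216 in the knockout photoperiod contrast (321 with all; 212 without wild-type short-day replicate 3), 10 to 33 in wild type (35), 43 to 91 for genotype under long days (117), 27 to 95 under short days (121), 214 to 520 for pooled photoperiod (562), 208 to 380 for pooled genotype (437) and 0 to 6 for the interaction (1). The 2 compared groups alone gave 61 calls in the knockout, 1 in wild type and 74 for genotype under short days. The interaction had 0 calls at a pseudocount of 0.1 and 6 with all genes above 0 TPM. Median-ratio scaling moved the higher and lower calls to 192 and 182 in the knockout (202 and 119 before), 13 and 12 in wild type (12 and 23), 60 and 44 for genotype under long days (86 and 31) and 71 and 60 under short days (53 and 68); the cause was not tested. It also turned the sign of fst in wild type (0.035) and between genotypes under short days (0.0035), of gnrh3 (-0.034) and foxl2 (-0.022) between genotypes under long days, and of the tac3 interaction (-0.022).

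The replicate block, on the number in the titles, gave 316 calls in the knockout, 35 in wild type, 134 and 131 for genotype under long and short days, 508 and 465 for the pooled photoperiod and genotype contrasts and 1 for the interaction, and moved no member across the threshold. Deviations of same-numbered libraries correlated by 0.082 and 0.088 under short days and by -0.048 and -0.0049 under long days. Those of differently numbered libraries ran from -0.14 to 0.048 under short days and from -0.078 to 0.092 under long days. So few pairs cannot show whether the numbers pair the libraries.

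With 1 library left out, signs changed within these log2 ranges, with no call. In the knockout photoperiod contrast: foxl2 -0.30 to 0.20, fst -0.24 to 0.20, gnrh3 -0.28 to 0.21, tacr3 -0.45 to 0.0087. In wild type: fst -0.097 to 0.11, gnrh3 -0.27 to 0.38, tac3 -0.51 to 0.00038, tacr3 -0.11 to 0.34. Between genotypes under long days: foxl2 -0.21 to 0.28, gnrh3 -0.27 to 0.23. Between genotypes under short days: fst -0.30 to 0.13, gnrh3 -0.25 to 0.39, inhbb -0.23 to 0.0203, tacr3 -0.18 to 0.063. In the pooled photoperiod contrast: fst -0.12 to 0.091, gnrh3 -0.14 to 0.18, tacr3 -0.19 to 0.08. In the pooled genotype contrast: fst -0.19 to 0.022, gnrh1 -0.052 to 0.16, gnrh3 -0.13 to 0.20. In the interaction: fst -0.22 to 0.21, gnrh3 -0.39 to 0.26, inhbb -0.091 to 0.16, tac3 -0.27 to 0.24.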

Other observations

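The receptor gene gnrh-r2, singled out after its values were seen, was higher in every knockout library than in every wild-type library of the same day length. Knockout long-day libraries held 30.7, 31.6 and 48.7 TPM, against 29.3, 27.8 and 27.4 TPM in wild-type long-day libraries. Knockout short-day libraries held 29.6, 29.5 and 38.7 TPM, against 26.5, 29.0 and 28.4 TPM in wild-type short-day libraries. Of all tested genes 15.8% separated the genotypes in either direction under long days and 19.5% under short days. Separated upward in the knockout were 1856 of 18218 genes under long days and 1148 under short days. The share separated upward under both was not counted. The log2 difference was 0.35 under long days and 0.20 under short days (limma, adjusted p = 0.435 and 0.629). The pooled log2 difference was 0.28 (SE 0.11, limma adjusted p = 0.255), and 1 library of each knockout group, long-day replicate 16 and short-day replicate 4, held the highest values.

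The progesterone receptor gene pgr, also singled out afterwards, separated the day lengths in wild type, as gnrh1 and 17.0% of all tested genes did. Long-day replicate 14 of wild type was the highest of the 12 libraries for both genes. Within the wild-type short-day group their orders were opposite: gnrh1 had 35.9, 25.3 and 19.3 TPM in replicates 1 to 3, where pgr rose. Wild-type long-day libraries held 4.21, 5.30 and 4.26 TPM, against 1.45, 2.56 and 2.73 TPM in wild-type short-day libraries, a log2 difference of 0.80 (SE 0.20, limma adjusted p = 0.152). In the knockout the values were 4.02, 3.97 and 4.32 TPM on long days and 4.32, 2.52 and 2.62 TPM on short days, a difference of 0.32 (SE 0.20, limma adjusted p = 0.480).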
